A study of Homo sapiens with 2 samples.

Results

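The genes described here encode the pyruvate dehydrogenase (PDH) complex and the enzymes that switch it off and on. They are the 10 rows of the deposited table whose symbol was PDHA1, PDHB, DLAT, PDHX, PDK1, PDK2, PDK3, PDK4, PDP1 or PDP2, out of 19989 genes, and all 10 had a mean of at least 1 CPM (counts per 1000000 counts of the library). Polyadenylated RNA was sequenced from hNCI-H716 cells, a human line from a colorectal adenocarcinoma of the cecum that serves as a model of the enteroendocrine L-cell. One library was made at a low glucose concentration (5.5 mM) and 1 at a high one (25 mM), each after 48 h in DMEM with serum and antibiotics on Matrigel, and before that all cells had been grown in suspension in RPMI medium. With 1 library per concentration, no difference has a replicate check, glucose cannot be told apart from any other difference between the libraries, no p-value was computed, and every 95% interval covers counting error only.

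The PDH complex sits in the mitochondrial matrix, where it turns pyruvate from glycolysis into acetyl-CoA for the tricarboxylic acid (TCA) cycle and for lipid synthesis. Its E1 enzyme, made of PDHA1 and PDHB, decarboxylates pyruvate. Its E2 core, DLAT, passes the acetyl group to coenzyme A on a swinging lipoyl arm, E3 (DLD) reoxidizes that arm, and PDHX binds E3 to the core. The PDH kinases dock on the lipoyl domains and inactivate E1 by phosphorylating serines of PDHA1, and the PDH phosphatases remove these phosphates. This switch sets how much pyruvate is oxidized and how much is left for lactate and alanine. RNA levels do not show the phosphorylation state of the complex.

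The libraries held 21757941 estimated counts at 5.5 mM and 19456765 at 25 mM, and 3 counts, the limit set for a count of 0, correspond to 0.138 and 0.154 CPM. Of 8 markers of the cell line 7 had a row, with proglucagon (GCG) at 1954 CPM at 5.5 mM and 1808 CPM at 25 mM, PCSK1 at 555 and 600.3 CPM, CHGA at 704 and 653 CPM and SCG2 at 204 CPM in both. The intestinal markers VIL1, at 11.7 and 17.8 CPM (log2 ratio of high over low glucose 0.61, 95% interval 0.38 to 0.85), and CDX2, at 30.5 and 38.2 CPM (0.33, 0.17 to 0.48), were higher at 25 mM, and VIL1 was the one gene of the lists used here that averaged 10 CPM or more and passed 1.5-fold. GCG (-0.11, -0.13 to -0.092) and CHGA (-0.11, -0.14 to -0.075) were lower at 25 mM, so that with PCSK1 the interval excluded 0 for 3 of 7 markers that were higher and 2 that were lower, against 15.8% and 15.9% of all genes. These shares are not matched for level, and the interval is narrower for highly expressed genes such as GCG. EPCAM was low, at 3.37 and 3.50 CPM, and NEUROD1 had no row in the table. Of 10 markers of blood, vessel, fibroblast, liver, beta-cell, red cell and muscle, 5 had no row and 4 were under 1 CPM. ALB, the albumin gene, was at 456 CPM at 5.5 mM and 487 CPM at 25 mM. The part of these markers in the results below was not tested.

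Of the 4 genes of the complex, PDHB and DLAT were higher at 25 mM beyond the 95% counting interval, and the intervals of PDHA1 and PDHX held 0. Over all genes 15.8% were called higher in this way. In either direction the share was 26.6% of genes of 10 to 50 CPM, where PDHB lies, and 46.9% of those of 50 to 250 CPM, where the other 3 lie, of which DLAT was called. With 4 genes, nothing is read from these counts about the complex. The target of the kinases, PDHA1 (E1 alpha; GRCh38 chromosome X, 19343893 to 19361705, plus strand), stood at 205 CPM in both libraries, with a 95% Wilson interval of 199 to 211 CPM at 5.5 mM and 198 to 211 CPM at 25 mM. Its log2 ratio of the high over the low glucose library was -0.00039 (exact binomial interval -0.062 to 0.062). In bulk RNA, fewer cells that express a gene and less of its RNA per cell cannot be told apart. The sequences below are the coding bases of PDHA1 around the serines that the kinases phosphorylate, with the serine codons in capitals, numbered from the start codon. The first lies in exon 7 (chrX:19355415-19355453), and the second crosses the junction of exons 9 and 10 (chrX:19357676-19358931, intron included).
PDHA1, codon 232: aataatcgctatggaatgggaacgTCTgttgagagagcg
PDHA1, codons 293 and 300: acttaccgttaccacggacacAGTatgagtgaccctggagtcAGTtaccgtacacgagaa

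PDHB (E1 beta; chromosome 3, 58427630 to 58433857, minus strand) was at 42.0 CPM (39.4 to 44.8) at 5.5 mM and 47.3 CPM (44.3 to 50.4) at 25 mM. The log2 ratio was 0.17 (0.036 to 0.30), so the interval excluded 0, although the intervals of the levels overlapped. DLAT (E2; chromosome 11, 112024814 to 112064390, plus strand) was at 85.6 CPM (81.8 to 89.6) at 5.5 mM and 94.5 CPM (90.3 to 98.9) at 25 mM, which gave a log2 ratio of 0.14 (0.049 to 0.24). Its intervals did not overlap. PDHX (chromosome 11, 34915829 to 35020591, plus strand) was at 59.8 CPM (56.6 to 63.1) and 62.6 CPM (59.2 to 66.2), and its log2 ratio of 0.068 had an interval (-0.046 to 0.18) that held 0. PDHB and DLAT were thus higher in the high glucose library by 1.12 and 1.10 times, beyond the 95% counting interval, while PDHA1 lay at the same level. With a 99% interval the call of PDHB was lost (-0.0058 to 0.34) and that of DLAT was not (0.020 to 0.27), while 20.9% of all genes were called. Ratios taken within a library do not depend on library scaling. The DLAT to PDHA1 ratio was 0.418 at 5.5 mM and 0.462 at 25 mM, a log2 difference of 0.14 (0.031 to 0.26), and the PDHB to PDHA1 ratio was 0.205 and 0.231, a log2 difference of 0.17 (0.022 to 0.32). The PDHX to PDHA1 ratio was 0.292 and 0.306, and the interval of its log2 difference of 0.068 (-0.062 to 0.20) held 0.

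DLAT and PDHX both carry lipoyl domains. The coding bases around each lipoyl-lysine codon, in capitals, are shown for the 2 domains of DLAT and the 1 of PDHX. The DLAT codons lie at the junctions of exons 2 and 3 (chr11:112026294-112028541, intron included) and of exons 5 and 6 (chr11:112033500-112037274, intron included), and that of PDHX in exon 3 (chr11:34947535-34947567).
DLAT, codon 132: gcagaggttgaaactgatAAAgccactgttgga
DLAT, codon 259: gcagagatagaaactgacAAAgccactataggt
PDHX, codon 97: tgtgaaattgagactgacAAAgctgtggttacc
The whole coding sequences of DLAT and PDHX were identical at 61.8% of 1491 aligned bases, and the longest run that their transcripts shared was 11 bases. Summed over DLAT and PDHX, the level was 145 CPM (140 to 150) at 5.5 mM and 157 CPM (152 to 163) at 25 mM, a log2 ratio of 0.11 (0.040 to 0.18). For E1, PDHA1 and PDHB together were at 247 CPM (240.1 to 253) and 252 CPM (245 to 259), a log2 ratio of 0.030 (-0.026 to 0.086). DLD, which is E3 and is also used by the other 2-oxoacid dehydrogenases, was at 150.3 CPM at 5.5 mM and 150.4 CPM at 25 mM.

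**Figure D1:**
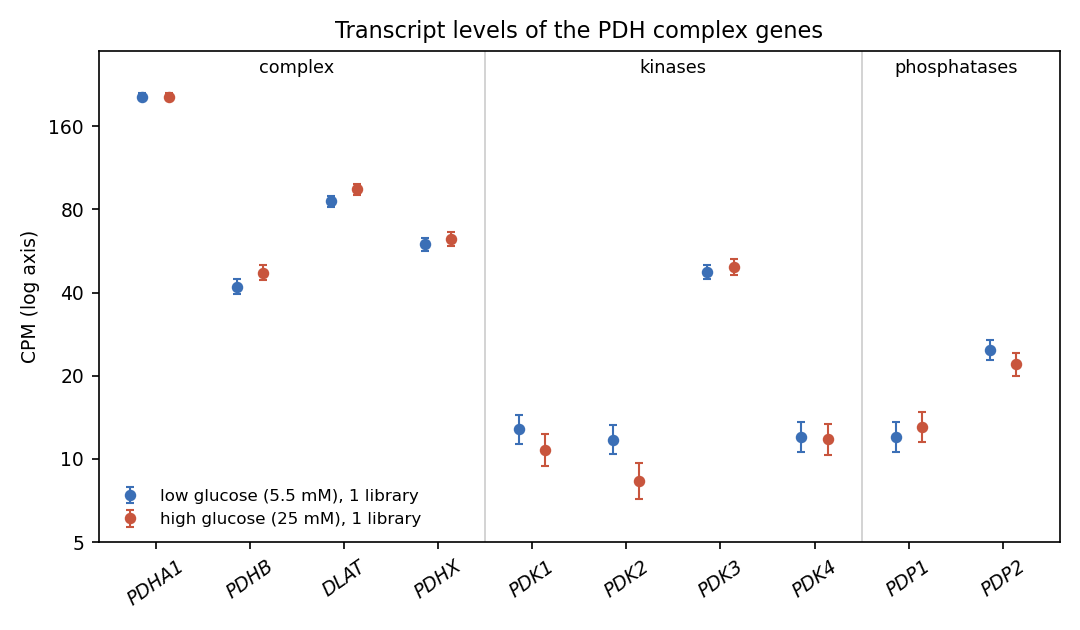
Transcript level of each gene (CPM, log axis) in the low glucose library (blue) and the high glucose library (red), 1 library each, with 95% Wilson intervals from counts. PDHA1 was highest at 205 CPM in both libraries, PDK3 stood above the other kinases, and PDK2 had the lowest value, 8.34 CPM at 25 mM.

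All 4 kinase genes were expressed, and PDK3 was the main one. PDK3 (chromosome X, 24465221 to 24541862, plus strand), a kinase known as a target of hypoxia-inducible factor, was at 47.5 CPM (44.6 to 50.4) at 5.5 mM and 49.5 CPM (46.5 to 52.7) at 25 mM. The other kinases were at 8.34 to 12.8 CPM. At 5.5 mM PDK3 made up 56.5% of the summed kinase CPM (exact binomial interval 54.2 to 58.8%), PDK1 15.2% (13.6 to 17.0%), PDK4 14.3% (12.7 to 16.0%) and PDK2 14.0% (12.4 to 15.7%). At 25 mM the share of PDK3 was 61.6% (59.1 to 64.0%) and that of PDK2 10.4% (8.89 to 12.0%), and neither interval overlapped its interval at 5.5 mM. A share depends on the other kinases in the sum, and the level of PDK3 itself had a log2 ratio of 0.061 (-0.067 to 0.19), with 0 inside the interval. The shares of PDK1, 13.4% (11.8 to 15.2%), and PDK4, 14.7% (13.0 to 16.5%), overlapped theirs. Per kb of transcript, PDK3 made up 76.3% of the kinase level at 5.5 mM and 79.9% at 25 mM with the longest principal transcript of each gene, but 46.5% and 53.4% with the median coding length. PDK3 remained first among the kinases with each of the 4 lengths tried.

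**Figure D2:**
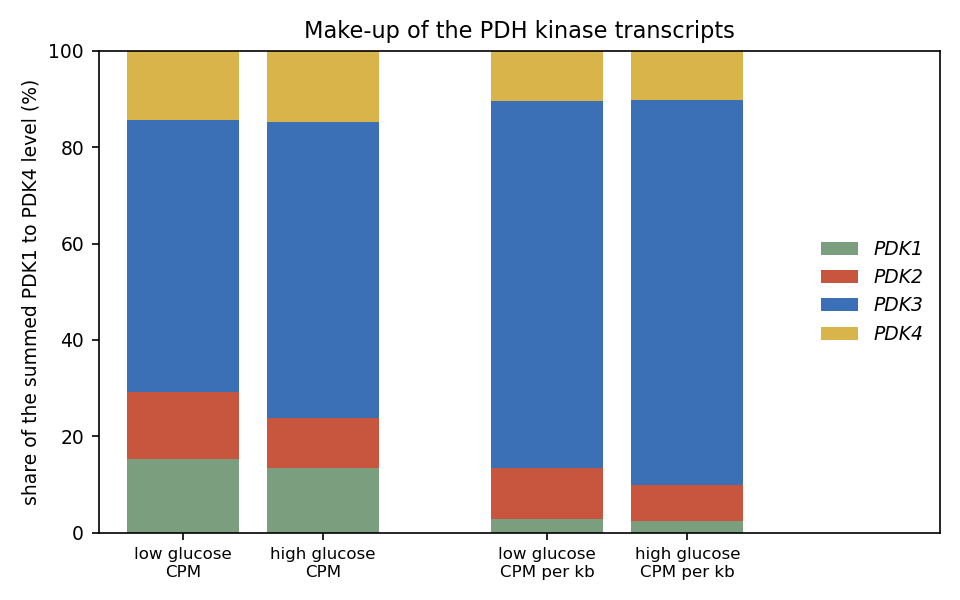
Share of each kinase gene in the summed PDK1 to PDK4 level (percent) in each library, for CPM on the left and CPM per kb of transcript on the right. PDK3 took 56.5% of the CPM at 5.5 mM and 61.6% at 25 mM, while PDK2 went from 14.0% to 10.4%.

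PDK2 (chromosome 17, 50094737 to 50112152, plus strand), a widely expressed kinase of oxidative tissues, had the log2 ratio farthest from 0 among the 10 genes. It was at 11.8 CPM (10.4 to 13.3, from 255 estimated counts) at 5.5 mM and 8.34 CPM (7.14 to 9.71, from 162 estimated counts) at 25 mM. The intervals did not overlap, and the log2 ratio was -0.50 (-0.79 to -0.21), or 0.709 times the low glucose level. Of the 4931 genes with a mean of 10 to 50 CPM, whose log2 ratios had an SD of 0.18, 43 had a lower ratio. The mean of PDK2, 10.0 CPM, lies at the bottom of that range, where the spread is wider. Among the 857 genes whose mean was within 20% of that of PDK2, the SD was 0.25 and 20 genes had a lower ratio. This range was chosen after the values were seen, and it put PDK2 at the 2.33 percentile. The interval excluded 0 for 20.3% of these 857 genes. PDK2 was singled out here as the gene of the 10 with the ratio farthest from 0. Against PDHA1 in the same library, PDK2 was at 0.0575 at 5.5 mM and 0.0408 at 25 mM, and against PDK3 at 0.248 and 0.168, a log2 difference of -0.56 (-0.88 to -0.24).

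The value of PDK2 depends on how reads were divided with a gene on the other strand. In GENCODE v29, 2113 exon bases of PDK2 overlap SAMD14, and 60.6% of the 75-base words of the PDK2 transcript, the length of a read as aligned, also occur in transcripts of SAMD14. SAMD14 was at 1.43 CPM (30.8 estimated counts) at 5.5 mM and 1.90 CPM (36.8 estimated counts) at 25 mM, and its log2 ratio of 0.41 had an interval (-0.32 to 1.15) that held 0. The estimated counts of the pair added to 286 and 199. As a sum, which was chosen after the values were seen, PDK2 and SAMD14 were at 13.2 CPM (11.7 to 14.8) at 5.5 mM and 10.2 CPM (8.89 to 11.7) at 25 mM, a log2 ratio of -0.37 (-0.63 to -0.10). The sum was lower in the high glucose library as well, but most of its counts were those assigned to PDK2. It cannot show to which gene the shared reads belong, and this was not tested.

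PDK1 (chromosome 2, 172555373 to 172608669, plus strand), a kinase also induced in hypoxia, was at 12.8 CPM (11.4 to 14.4) at 5.5 mM and 10.8 CPM (9.41 to 12.3) at 25 mM. Its log2 ratio was -0.25, with an interval (-0.51 to 0.016) that held 0. PDK4 (chromosome 7, 95583499 to 95596491, minus strand), the kinase known for its induction by fasting and fatty acids, was at 12.0 CPM (10.6 to 13.6) and 11.8 CPM (10.4 to 13.4), and the log2 ratio of -0.026 (-0.29 to 0.24) left a difference of this size undetectable at this depth. The 4 kinases together were at 84.1 CPM (80.2 to 88.0) at 5.5 mM and 80.5 CPM (76.5 to 84.5) at 25 mM, a log2 ratio of -0.063 (-0.16 to 0.035), and without PDK2 the sum was 72.3 and 72.1 CPM. The coding sequences of the 4 kinases were identical at 65.1 to 70.0% of aligned bases in their 6 pairs, and the longest run shared by a pair of transcripts was 25 bases, shorter than a read.

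The log2 ratios of the phosphatase genes had opposite signs. PDP1 (chromosome 8, 93857807 to 93926066, plus strand), the calcium-stimulated form, was at 12.0 CPM (10.6 to 13.6) at 5.5 mM and 13.0 CPM (11.5 to 14.7) at 25 mM, with a log2 ratio of 0.12 (-0.14 to 0.37). PDP2 (chromosome 16, 66878589 to 66895754, plus strand), the form that does not need calcium, was at 24.9 CPM (22.8 to 27.0) and 22.0 CPM (20.03 to 24.2), with a log2 ratio of -0.18 (-0.36 to 0.010). Both intervals held 0, and so did that of the PDP2 to PDP1 ratio, which was 2.07 at 5.5 mM and 1.69 at 25 mM, a log2 difference of -0.29 (-0.61 to 0.025). PDPR, the regulatory subunit that holds PDP1 back, was at 42.6 and 41.7 CPM, but 32.4% of its 75-base words also occur in 4 other genes, so its level is uncertain. The ratio of summed kinase CPM to summed phosphatase CPM was 2.28 (2.10 to 2.48) at 5.5 mM and 2.29 (2.10 to 2.51) at 25 mM. The log2 difference was 0.010, with an interval from -0.17 to 0.19. Summed per kb, the ratio itself depended on the transcript length, from 1.06 at 5.5 mM with the median coding length to 5.15 with the longest principal transcript.

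Transcript words shared with other genes were found for 5 more of the 10. The 75-base words shared were 22.8% for PDHA1 with MAP3K15, 4.96% for PDHB and 1.32% for PDK1 with antisense genes that had no row in the table under their GENCODE v29 names, 3.19% for DLAT with PIH1D2 and 0.0707% for PDP2 with ZNF90. MAP3K15 had no row either, and PIH1D2 was at 0.657 and 0.525 CPM. PDHX shared 0 such words but overlaps APIP, on the other strand, by 259 exon bases, and APIP was at 70.2 CPM at 5.5 mM and 72.9 CPM at 25 mM. The library kit was the Illumina TruSeq RNA kit v2, which does not mark strand.

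CPM are not corrected for transcript length, so the shares and ratios of CPM between genes given above mix level and length. Per length, the order was led by PDHA1. In CPM per kb of the longest principal coding transcript, low glucose levels were 61.8 for PDHA1, 27.5 for PDHB, 25.0 for PDHX, 24.7 for PDK3 and 19.2 for DLAT. PDHB, PDHX and PDK3 had overlapping intervals, from 23.2 to 29.4 CPM per kb, so their order is not set. A second tier held PDP2 at 3.48, PDK2 at 3.42, PDK4 at 3.36 and PDP1 at 2.82 CPM per kb, where each overlapped its neighbour, and PDK1 was last at 0.902. At 25 mM the first 5 kept this order, at 61.8, 31.0, 26.2, 25.8 and 21.2 CPM per kb, and the second tier ran PDK4 at 3.30, PDP2 at 3.08, PDP1 at 3.05 and PDK2 at 2.42, before PDK1 at 0.760 CPM per kb. At 25 mM the whole interval of PDHB lay above that of PDHX, 24.8 to 27.7 CPM per kb, while PDHX and PDK3 still overlapped, as did each pair of neighbours in the second tier. The mean of both libraries placed PDHA1 at the 89.3 percentile of 11294 protein-coding genes of 1 CPM or more, PDK3 at the 74.6 percentile and PDK1 at the 7.21 percentile. These levels and their order rest on the transcript chosen. With the median coding length, PDP2 was at 42.4 CPM per kb at 5.5 mM and 37.6 at 25 mM, above PDK3 at 25.5 and 26.6, and PDK4 was last at 3.36 and 3.30. PDK1 has a principal transcript of 14.2 kb, and with the median coding transcript of 1.18 kb its low glucose level was 10.9 CPM per kb. With the longest transcript of each gene, PDHB was at 9.43 and PDK3 at 10.1 CPM per kb at 5.5 mM. PDHA1 was first of the 10, in both libraries, with each of the 4 lengths.

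Set against all genes, the share of the group called in either direction was near or below the background, and PDK2 had the ratio farthest from 0. Of the 10 genes, 0 reached 1.5-fold, while 3.68% of the 13052 genes that averaged 1 CPM or more did (1.13% higher and 2.55% lower). At a log2 ratio of 0.32 in size, 1 of the 10 was past the threshold, against 12.6% of all genes. The counting interval excluded 0 for 3 of 10 genes, against 31.7% of all genes. By direction, PDHB and DLAT were higher in the high glucose library, where 15.8% of genes were called higher, and PDK2 was lower, where 15.9% were called lower. The share of 3 in 10 in either direction is near the background and is not a result about the group. The interval is narrower for higher genes, and it excluded 0 for 26.6% of genes with a mean of 10 to 50 CPM and for 46.9% of those with 50 to 250 CPM. The median log2 ratio was 0.031 over the 10 genes and -0.0064 over all 13052. By role, it was 0.11 for the 4 genes of the complex, -0.14 for the 4 kinases and -0.029 for the phosphatases. DLD, the E3 enzyme, is not among these 4 and had a log2 ratio of 0.0013. The kinase median lies between the ratios of PDK1 and PDK4, whose intervals held 0. PDK3 was at 0.061, and the kinase sum at -0.063 (-0.16 to 0.035). Within the 4931 genes of 10 to 50 CPM, PDHB stood at the 86.6 percentile of the log2 ratio, PDK1 at the 8.03 percentile and PDK2 at the 0.872 percentile (2.33 among genes within 20% of its mean), and DLAT stood at the 86.1 percentile of the 3696 genes of 50 to 250 CPM.

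**Figure D3:**
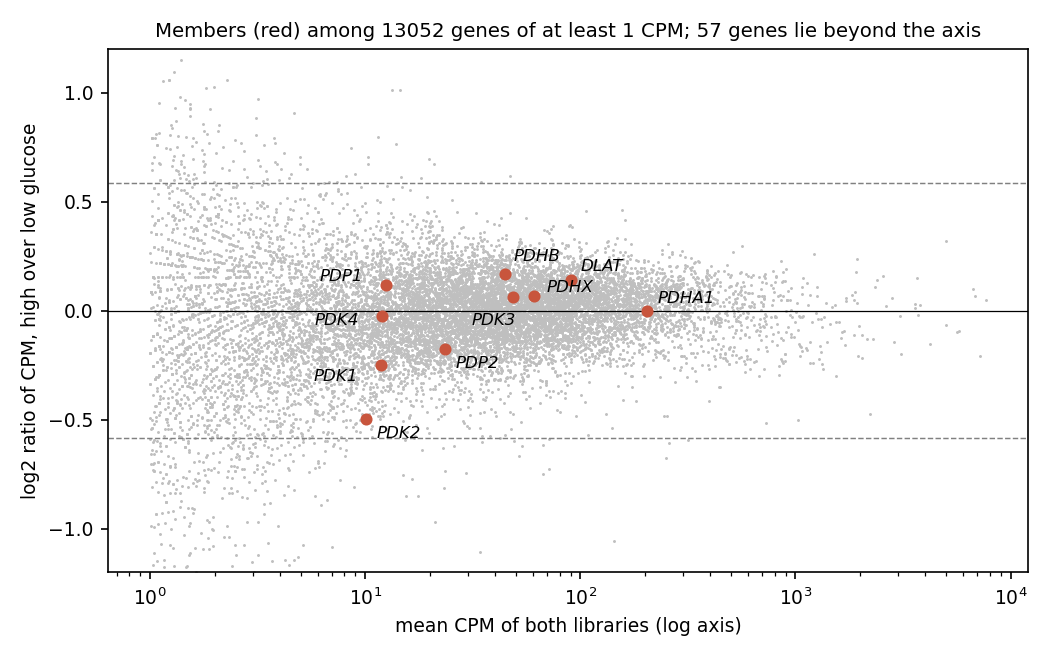
Log2 ratio of CPM in high over low glucose against the mean CPM of both libraries (log axis) for 13052 genes of at least 1 CPM (grey), with the 10 genes in red and dashed lines at 1.5-fold. All 10 lie inside the dashed lines, PDK2 nearest to one of them at -0.50, and 57 other genes lie beyond the axis.

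Among the regulators on which the kinase genes are known to depend, PPARGC1A, a coactivator that drives PDK4 with ERR-alpha and PPAR receptors, was the lowest in ratio. It was at 26.3 CPM at 5.5 mM and 18.8 CPM at 25 mM, a log2 ratio of -0.48 (-0.68 to -0.29). PPARA, a fatty acid receptor, had the highest ratio among those of at least 10 CPM, at 11.3 and 12.5 CPM, a log2 ratio of 0.14 (-0.12 to 0.40). HIF1A, known to act on PDK1 and PDK3, was at 124 and 131 CPM, with a log2 ratio of 0.082 (0.0029 to 0.16). Of the 11 regulators tested, 0 reached 1.5-fold, against 3.68% of all genes, and the interval excluded 0 for 1 that was higher and 1 that was lower, against 15.8% and 15.9%. Whether these levels bear on the kinase genes was not tested.

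The genes that bring pyruvate to the complex or take it elsewhere included calls in both directions. Of 12 pyruvate and lactate genes, 0 reached 1.5-fold. The interval excluded 0 for 4 that were higher at 25 mM and 2 that were lower, against 15.8% and 15.9% of all genes. These shares are not matched for level, and the interval is narrower for highly expressed genes. Several of the called genes were highly expressed, with LDHA at a mean of 1225 CPM. LDHA, which makes lactate, had the highest ratio, from 1115 to 1335 CPM (log2 ratio 0.26, 0.23 to 0.28), and GPT2, which links pyruvate and alanine in mitochondria, the lowest, from 63.6 to 53.5 CPM (-0.25, -0.37 to -0.13). The pyruvate carrier genes MPC1 and MPC2 were at 41.4 and 140 CPM at 5.5 mM and at 41.0 and 137 CPM at 25 mM. The 10 genes of the sister 2-oxoacid dehydrogenase complexes had a median log2 ratio of -0.023. Against 31.7% of all genes, the interval excluded 0 for DLST alone, at 173 and 184 CPM (0.084, 0.018 to 0.15), and at 10 CPM or more the lowest and highest ratios were those of DBT (-0.045) and BCKDHB (0.24), whose intervals held 0. Of 8 lipoate and thiamine genes tested, NDUFAB1 was lower (-0.096, -0.17 to -0.023) and SLC19A2, a thiamine transporter, higher (0.12, 0.025 to 0.22), while 31.7% of all genes were called in either direction.

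Further along the pathway, a list of 17 genes of the TCA cycle and its enzyme families held 3 for cytosolic enzymes (ACO1, IDH1 and MDH1). Without these, the interval excluded 0 for 4 of 14 that were higher at 25 mM and for 4 that were lower, against 15.8% and 15.9% of all genes, and 46.9% in either direction at 50 to 250 CPM. None of the 14 reached 1.5-fold, and their median log2 ratio was -0.011. With the 3 included, 6 of 17 were higher and 4 lower, and the median was 0.036. IDH3A, a subunit of isocitrate dehydrogenase, was at 62.7 CPM at 5.5 mM and 74.0 CPM at 25 mM (0.24, 0.13 to 0.35), and SDHD, a membrane anchor of succinate dehydrogenase, at 101 and 88.1 CPM (-0.19, -0.28 to -0.10). Of 6 genes of acetyl-CoA supply and use, 2 were higher beyond counting error and 1 lower, against 15.8% and 15.9% of all genes. Here too the shares are not matched for level. ACSS1, which makes acetyl-CoA from acetate in mitochondria, was at 43.6 and 49.4 CPM (0.18, 0.049 to 0.31), while CRAT, carnitine acetyltransferase, was at 29.1 and 27.2 CPM (-0.095, -0.26 to 0.074), with 0 inside the interval. The lower one was SLC25A1, the mitochondrial citrate carrier, at 103 and 96.5 CPM (-0.091, -0.18 to -0.0022). PDHA2, the testis form of E1 alpha, had no row in the table.

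**Figure D4:**
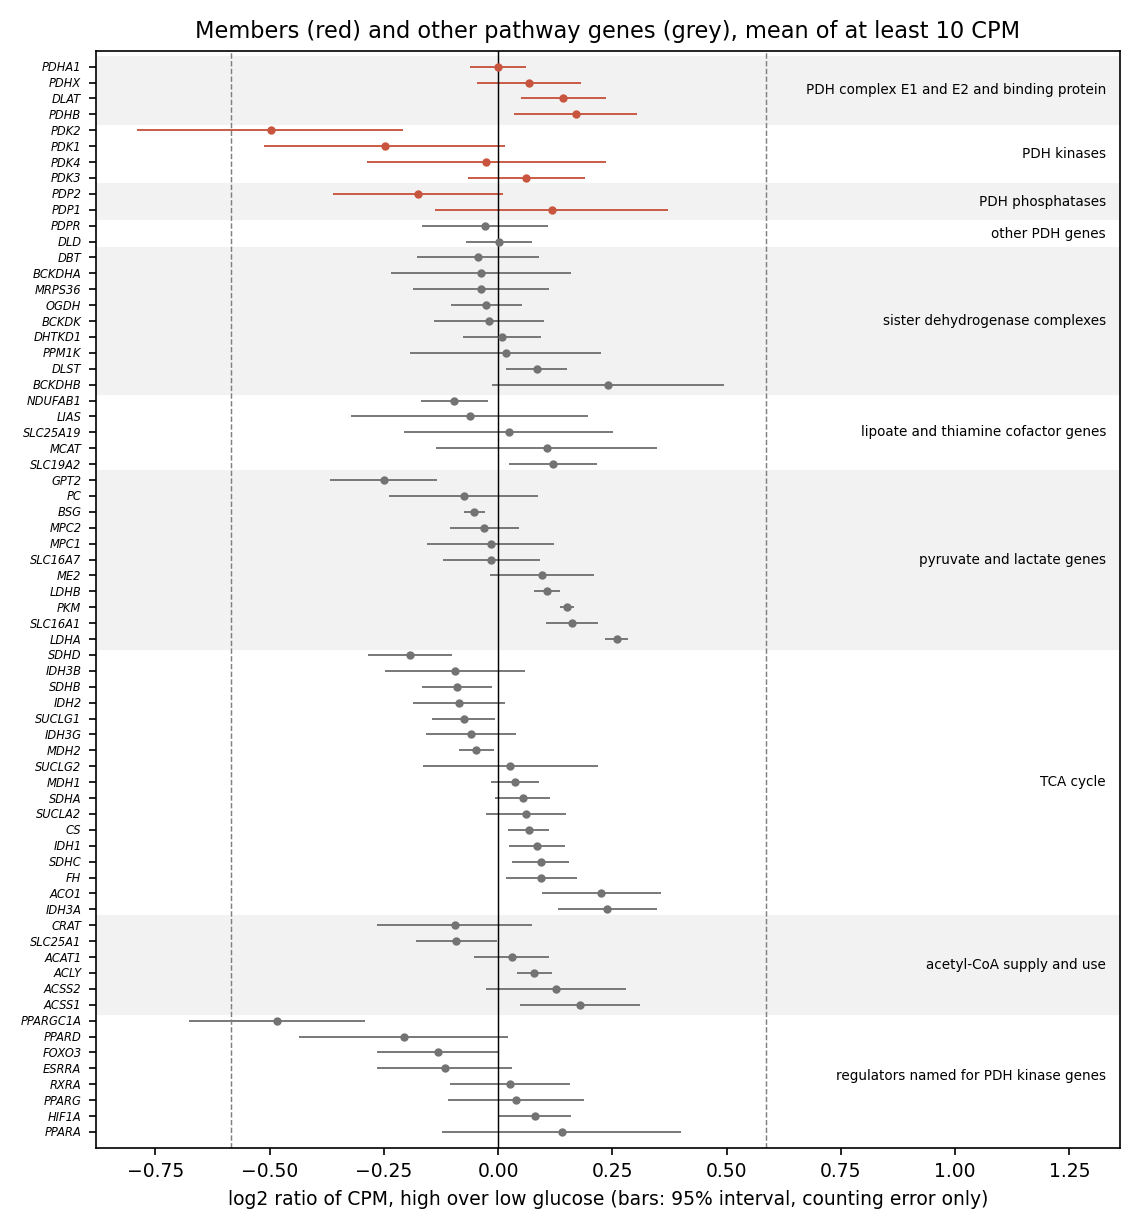
Log2 ratio of CPM in high over low glucose with 95% exact binomial intervals from counts, for the 10 genes (red) and other pathway genes averaging 10 CPM or more (grey), grouped by list, with dashed lines at 1.5-fold. PDK2 at -0.50 and PPARGC1A at -0.48 are the lowest points, and 0 genes pass a dashed line.

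The promoters were searched for letters bound by factors of the clock, glucose and mitochondrial programmes. RefSeq windows from 250 bases before to 50 after a start were held for 9 of the 10 genes, with 3 starts for PDK2 and 2 each for PDHX and PDK1. The E-box CACGTG, read by BMAL1 and CLOCK and by the MYC and Mondo families, occurred on either strand in 3 of 9 genes, PDHB, PDK2 and PDP2, against 8.77% of 27305 genes. Windows of 100 bases are shown for PDHB (chr3:58433983-58434082, minus strand, GRCh38.p14) and PDK2 (chr17:50095175-50095274, plus strand), with the E-box in capitals, 236 bases before the PDHB start and 129 bases before a PDK2 start. Neither window overlaps an exon of GENCODE v29, whereas that of PDP2 does and is not shown.
PDHB: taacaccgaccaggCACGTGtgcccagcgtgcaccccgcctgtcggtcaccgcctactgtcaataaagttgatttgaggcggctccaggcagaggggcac
PDK2: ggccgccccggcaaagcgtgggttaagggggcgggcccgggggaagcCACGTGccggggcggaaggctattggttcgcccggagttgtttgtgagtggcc
The core ACGTG, which lies inside the E-box and is read by hypoxia-inducible factor, occurred in 7 of 9 genes, against 24.9% of all. GGGCGG and CCAAT were each found in 8 of 9, against 48.3% and 39.7%. TATAAA occurred in PDK1 alone (14.0% of all genes) and AGGTCA in DLAT alone (16.5%), while CGCATGCG (2.46%) and CCGGAAG (12.2%) were found in 0 of 9. A match describes these letters only, and genes with several starts had more windows in which to hold one. The shares of all genes were not matched for expression or base composition, so nothing particular to these genes is read from the counts.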

How the data were processed

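The study prepared polyA-selected libraries and ran paired-end reads on an Illumina HiSeq. Per the submitters' processing notes and the study's methods, reads were trimmed (Trim Galore 0.5.0), aligned with STAR 2.6.0 to GRCh38 with GENCODE v28 and quantified with RSEM 1.3.1, and genes with almost no counts were removed. The authors then used TMM in edgeR, with a prior, and deposited CPM and log2 CPM per library, their means, and a ratio (fold) and log2 difference of high over low glucose, which were not used. The deposited CPM hold a prior of 0.25 counts, and without it they add to 1000000 in each library, so no TMM factor is visible.

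Estimated counts were recovered from the steps between low CPM, and the CPM were divided by TMM factors computed from them, 0.998 (5.5 mM) and 1.002 (25 mM). The counts are RSEM estimates and no count model was run. Python 3.11.15, numpy 2.4.6, pandas 2.3.3, scipy 1.17.1 and Biopython 1.88 were used, and the calculations were tested on simulated libraries. Levels carry 95% Wilson intervals, ratios and shares exact binomial (Clopper-Pearson) intervals, and differences between within-library ratios exact conditional odds ratio intervals on rounded counts. A gene counted as called at 1.5-fold, or where its interval excluded 0, among genes that averaged 1 CPM or more. Places, lengths and overlaps came from GENCODE v29 and promoters from RefSeq, both on GRCh38; coding sequences are GENCODE v29 transcripts.

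The 10 genes and the gene lists were chosen with earlier results of these data known. One gene of the TCA cycle list is not reported here and was left out of its counts. Named besides these 10 were DLD, PDPR and PDHA2, the ends of each list among genes of at least 10 CPM (marker lists apart), genes that overlap or share words with one of the 10, and the marker lists. MPC1, MPC2, DLST, SLC25A1, ACO1, IDH1, MDH1 and HIF1A were named after their values were seen. Alternatives were other scalings, pseudocounts, thresholds, filters, transcript lengths and removal of the prior.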

Additional observations from a re-analysis of the deposited data

How the results depend on the processing

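Alternatives gave 255 values for 63 results, of which 60 moved: past the counting interval, over 1.5 times for a count or percentile, or, for the median of a list, past the typical half-width of its genes' intervals divided by the root of their number. None changed the sign of a called ratio, but these settings could hardly have done so. The scalings shifted the ratios slightly (PDHB from 0.169 to 0.174), and a pseudocount only shrinks a ratio. Of the 60, 20 were levels per kb, which follow the transcript length by construction, as do shares and ratios per kb. With the threshold lowered to a log2 ratio of 0.32, 1 of the 10 genes (PDK2) was past it, against 12.6% of all genes. The ratio of kinases to phosphatases was 5.15 at 5.5 mM and 5.26 at 25 mM from sums of CPM per kb. With other lengths, chosen after the values were seen, it was 2.84 and 2.79 (longest transcript), 1.06 and 1.04 (median coding length) and 2.98 and 2.996 (union of exons). Without its 3 genes of cytosolic enzymes, left out after the values were seen, the TCA cycle list had a median log2 ratio of -0.011, against 0.036. The median log2 ratio of the kinase regulators was -0.045 among those of at least 10 CPM, against 0.026, and that of the lipoate and thiamine genes turned from -0.039 to 0.024. With a 99% interval, 2 of the 10 genes (DLAT and PDK2, not PDHB) kept an interval without 0, against 20.9% of all genes, and without PDK2, left out after its overlap was seen, 2 did at 95% (31.7% of all genes). Depth limits PDK2 most, with 162 counts at 25 mM. No paired analysis was possible because there was a single library for each concentration.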
